A study of Mus musculus with 15 samples.

Results

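The Bcl2 family was followed in mouse hearts through 10 genes, chosen by symbol: Bcl2, Bcl2l1, Mcl1, Bax, Bak1, Bad, Bid, Bcl2l11, Bbc3 and Bnip3. Every non-control probe carrying one of these symbols was taken, which gave 19 probes of the 41174 distinct probes on the array and 10 of its 27845 gene symbols. All 19 probes passed the filter on dim signals. No rule on measured values picked the members, but earlier results of these data were known when they were chosen.

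Whole-heart RNA was measured in 5 nondiabetic mice (C57BL/KLS-leprdb/lepr+, db/+), 5 untreated diabetic mice (C57BL/KLS-leprdb/leprdb, db/db) and 5 db/db mice given rosiglitazone, an agonist of the nuclear receptor PPARγ, in chow at 5 mg/kg per day. All hearts were taken 4 months into the treatment period. The db/db mice carry 2 mutant copies of the leptin receptor gene in every tissue and become obese and insulin resistant, and the db/+ littermates used as controls carry a mutant copy beside the normal one. Each RNA was labelled with Cy5 and hybridised with a Cy3-labelled universal mouse reference RNA. Age and sex are not given in the sources used here.

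Proteins of the Bcl2 family decide whether the outer membrane of the mitochondrion stays closed. Bcl2, Bcl2l1 (Bcl-xL) and Mcl1 hold it closed. Bax and Bak1 form the pores through which cytochrome c escapes to switch on caspases, and the BH3-only proteins Bad, Bid, Bcl2l11 (Bim) and Bbc3 (Puma) tip the balance toward the pores. Bnip3 is an atypical member that marks mitochondria for removal by autophagy and is known in heart muscle as a gene induced by low oxygen. Heart muscle cells are hardly replaced in adult life, so this balance has long been studied in cardiac injury. Many of these proteins are controlled after translation, which RNA arrays do not measure.

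Bcl2 and Bcl2l1 were each read by 3 probes, and the results below turn on them. Sequences of 2 Bcl2 probes and of all 3 Bcl2l1 probes are given by their first 30 bases of 60, 5′ to 3′ as deposited, to show that the probes of a gene read different stretches of its transcripts. No capitals are used, since no base within them is singled out.
Bcl2, probe A_52_P534870 (transcript variant 1): catataatggctctttgtttgtgttgttag
Bcl2, probe A_52_P438280 (cDNA clone): ggagagaagctattttgtaagatgtttagt
Bcl2l1, probe A_52_P148861: ttattccttgtgaagatgatatactatttt
Bcl2l1, probe A_52_P510877: attggtgagtcggattgcaagttggatggc
Bcl2l1, probe A_51_P299454: agacccagtaagtgagcaggtgttttggac
Bnip3, the other gene with a called difference, was read by the single probe A_51_P155234: aaattaaagggtgcgtgcgggttatctgta

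In the mm8 assembly named in the files, the Bcl2 probes lie on the minus strand at chr1:108365763-108365822 for A_52_P534870 and chr1:108538280-108538339 for A_52_P438280, so the first lies 172517 bases downstream of the second. The third Bcl2 probe, A_51_P380013, was designed on transcript variant 2. The Bcl2l1 probes lie on the minus strand at chr2:152472336-152472395 for A_52_P148861, chr2:152520890-152520949 for A_52_P510877 and chr2:152521435-152521494 for A_51_P299454. The Bnip3 probe lies on the minus strand at chr7:138729737-138729796. Whether a probe falls in an exon of the coding region or in a UTR was not analysed here. In what follows each gene is led by its brightest probe, which for Bcl2 is A_52_P534870 and for Bcl2l1 is A_52_P148861.

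The level of a gene in a heart is given as the log2 ratio of heart to reference RNA, so 0 means equal signal in both, and 1 unit is a doubling. The arrays of treated replicates 3 and 4 were closer to each other in their heart channel (spread of the log2 difference 0.143, as a median absolute deviation) than any other pair of one group (0.268 to 0.624), and 99 of 105 pairs of arrays differed at least as much in the channel of the common reference. Their mean therefore entered every test as a single sample, which left 4 treated samples and 14 in all. Median heart signals per array ran from 159 to 303, and 56.4% to 75.6% of probes were well above background. All 9 cardiomyocyte markers examined, Myh6, Tnnt2 and Ryr2 among them, were above background in every group, and none of them passed the test in any comparison. The SE of their log2 differences ran from 0.39 (Ryr2) to 1.18 (Pln), too wide to show that levels were equal. Their summed signal, relative to the upper quartile of each array, was 2070 to 4430 in db/+ hearts. It was 1800 to 3180 in untreated and 1570 to 2520 in treated db/db hearts. Differences were tested with limma across all 27591 tested probes with Benjamini-Hochberg adjustment, and called at an adjusted p under 0.05.

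**Figure D1:**
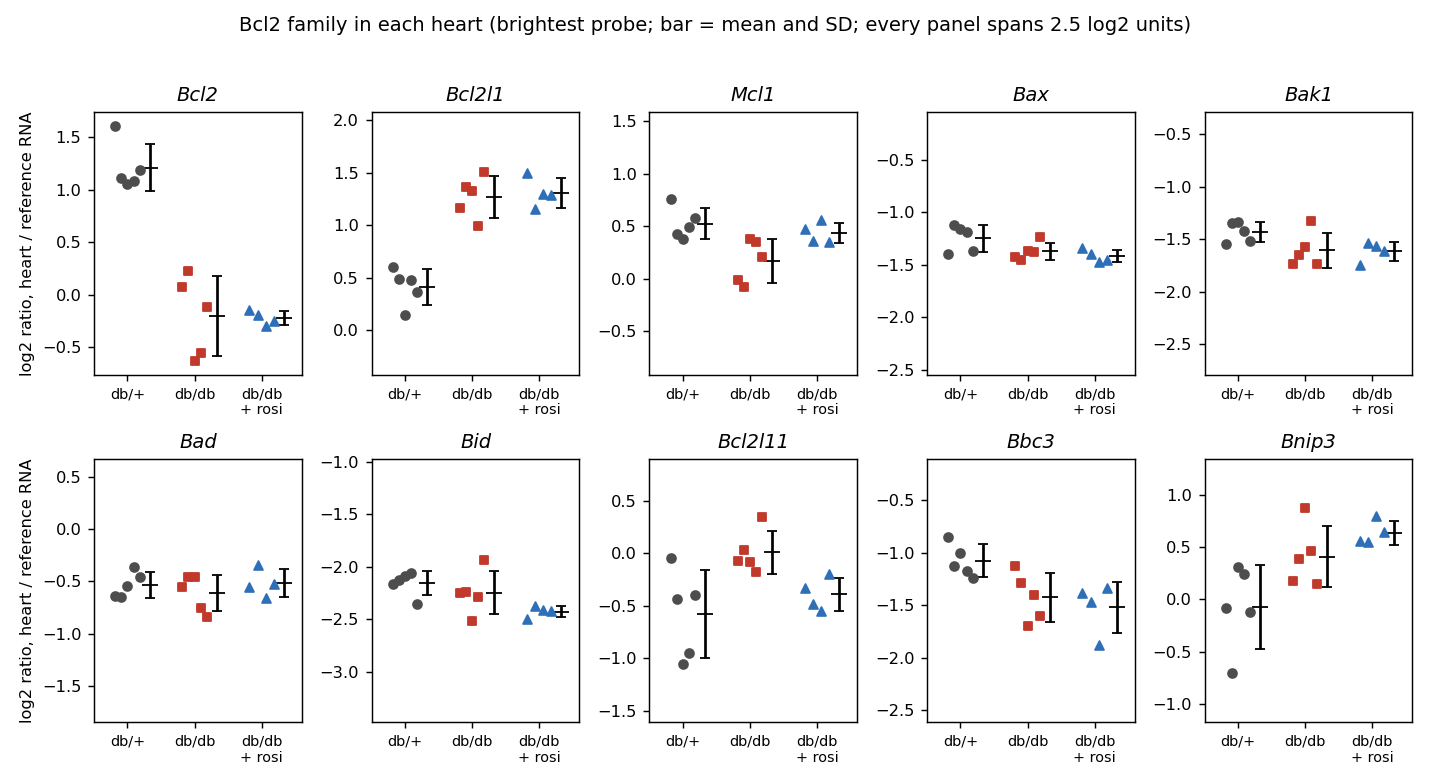
Log2 ratio of heart to reference RNA for the brightest probe of each of the 10 genes, one point per heart (treated replicates 3 and 4 as 1 point), with the mean and SD of each group beside the points. Every panel spans the same range, and the Bad panel shows A_52_P614762, which may not measure Bad. Bcl2 fell from a mean of 1.21 in db/+ hearts to -0.20 and -0.22 in the untreated and treated db/db hearts, while Bcl2l1 rose from 0.41 to 1.27 and 1.31.

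Between untreated db/db and db/+ hearts, 2 of the 10 genes passed the test at their brightest probe, in opposite directions: Bcl2 was lower and Bcl2l1 higher in the diabetic hearts. Of the 19 probes, 5 passed, 3 higher and 2 lower, which is 26.3%. Among all tested probes 7.45% passed in the same comparison, 4.21% higher and 3.24% lower. Without adjustment 12 of the 19 had p under 0.05, beside 25.1% of all probes, and the hearts did not overlap at 5 of the 19, beside 7.59%. Median sizes ran alike: the median absolute log2 difference was 0.38 over the 19 probes and 0.19 over all probes tested. Since 3 probes each read Bcl2 and Bcl2l1, these 5 calls come from 2 genes, against 7.78% of all genes at their brightest probe.

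Bcl2, which was first found at a chromosome break in B-cell lymphoma and gave the family its name, had log2 ratios of 1.61, 1.12, 1.06, 1.09 and 1.19 in the db/+ hearts at A_52_P534870. In the untreated db/db hearts the ratios were 0.07, 0.22, -0.63, -0.56 and -0.12. The groups did not overlap, and the lowest db/+ heart stood well above the highest db/db heart. The difference was -1.41 (SE 0.16), a 2.66-fold lower level, with a limma adjusted p of 0.00032. The drop was visible in the heart channel itself: the processed intensity was 3290 to 6910 in db/+ hearts and 1550 to 2660 in untreated db/db hearts. Across the 10 spots of this probe on an array, the log2 ratio had a median SD of 0.0394, far below the spread between hearts (SD 0.23 in db/+ and 0.38 in untreated db/db).

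The probe for Bcl2 transcript variant 2 gave a smaller difference in the same direction. Its mean log2 ratio was 0.81 ± 0.21 (SD, n = 5) in db/+ and 0.08 ± 0.28 (SD, n = 5) in the untreated diabetic hearts, without overlap. The difference was -0.73 (SE 0.14, limma adjusted p = 0.0093). At the dimmer cDNA-clone probe the hearts overlapped, with db/+ at 0.47 to 1.32 and untreated db/db at -0.84 to 0.63. There the difference of -0.86 (SE 0.26) missed the threshold in limma (adjusted p = 0.058). Whether the probes differ from each other in their change was not tested.

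Bcl2l1 encodes Bcl-xL, the long-lived mitochondrial guardian, and by alternative splicing also a short form that promotes death. At A_52_P148861 the log2 ratios were 0.60, 0.48, 0.14, 0.48 and 0.36 in db/+ hearts. They were 1.16, 1.37, 1.32, 0.99 and 1.5 in untreated db/db hearts, every one above every db/+ heart. The difference was 0.86 (SE 0.12), a 1.81-fold higher level (limma adjusted p = 0.001). The 2 other probes gave 0.93 (SE 0.14, limma adjusted p = 0.0018) at A_52_P510877 and 0.90 (SE 0.14, limma adjusted p = 0.0022) at A_51_P299454, so all 3 probes agreed within their errors. The last is dim, above background on 4 of the 5 db/+ arrays. The short and long forms were not told apart by these probes.

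Bcl2 and Bcl2l1 moved in opposite directions in the same hearts. The plot of both genes by heart shows that no db/db heart, treated or not, fell within the range of the db/+ hearts on either axis.

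**Figure D2:**
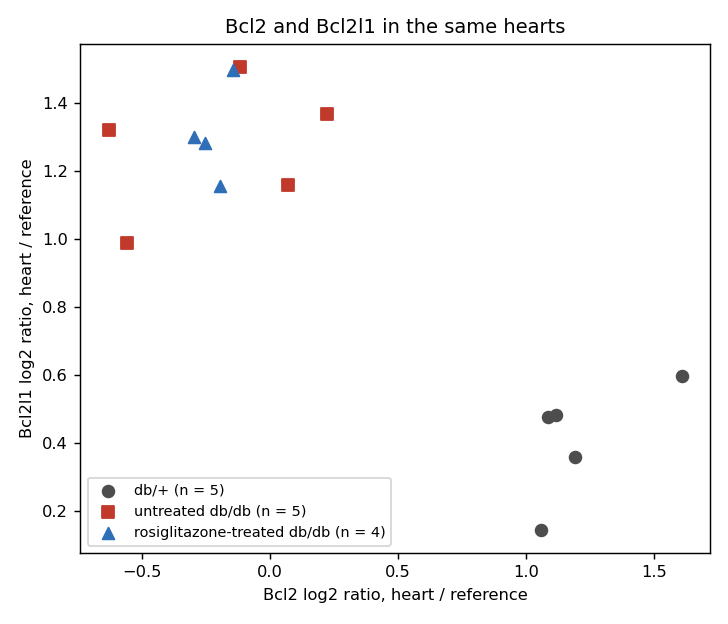
Bcl2 (x axis) against Bcl2l1 (y axis), each as the log2 ratio of heart to reference RNA at its brightest probe, one point per heart. The db/+ hearts lie at 1.06 or more for Bcl2 and at 0.60 or less for Bcl2l1, and every db/db heart lies at 0.22 or less for Bcl2 and at 0.99 or more for Bcl2l1, with treated and untreated hearts mixed.

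Mcl1, the third guardian, is short-lived and abundant in heart muscle. It did not pass the test in untreated db/db hearts. At A_51_P238786 the log2 ratio was 0.38 to 0.76 in db/+ and -0.08 to 0.38 in untreated db/db hearts, a difference of -0.36 (95% interval -0.59 to -0.12, limma adjusted p = 0.065). The second probe, A_52_P93933, gave -0.04 (95% interval -0.25 to 0.17), so the 2 probes left the size of any Mcl1 difference unsettled.

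The pore-forming effectors did not pass the test. Bax, read by a probe that spans more of the genome than its own length, had a log2 ratio of -1.25 ± 0.13 (SD, n = 5) in db/+ and -1.37 ± 0.08 (SD, n = 5) in the untreated diabetic hearts, a difference of -0.13 with a 95% interval of -0.30 to 0.05. The interval reaches a fall of less than 0.30 and hardly any rise. The 2 Bak1 probes went opposite ways. A_51_P395011 gave -0.17 (95% interval -0.37 to 0.03) and A_52_P225207 gave 0.36 (95% interval 0.09 to 0.63, limma adjusted p = 0.098), so no direction can be given for Bak1.

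Of the BH3-only genes none passed the test in untreated db/db hearts. Bcl2l11, encoding Bim, was the nearest: its brightest probe, A_52_P158527, read -1.05 to -0.05 in db/+ and -0.18 to 0.34 in untreated db/db hearts. Only db/+ replicate 1 (-0.05) reached into the range of the untreated hearts. The difference was 0.59 (SE 0.18, limma adjusted p = 0.059). Leaving out each array in turn gave 0.47 to 0.72, with limma adjusted p from 0.017 to 0.14. Only 1 of these 15 runs called the probe, the run without db/+ replicate 1, the overlapping heart. The other Bcl2l11 probes gave 0.38 (limma adjusted p = 0.20) at A_51_P484880 and 0.99 (limma adjusted p = 0.063) at A_52_P348214, the latter above background on 3 of the db/+ and 4 of the untreated arrays. Bbc3, the p53 target Puma, had a difference of -0.35 (SE 0.13, limma adjusted p = 0.13), with hearts at -1.24 to -0.84 in db/+ and -1.70 to -1.13 in untreated db/db.

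Bid, which links death receptors to mitochondria, differed by -0.09 (95% interval -0.31 to 0.13). Bad, which couples growth factor signalling to survival, differed by -0.07 (95% interval -0.51 to 0.38) at A_51_P419364, the probe that matched the RefSeq transcript of Bad, which lies on the plus strand at chr19:7009172-7009231. The brighter probe named Bad, A_52_P614762, matched no RefSeq transcript and lies on the minus strand at chr19:7018148-7018207, so it may not measure Bad. It differed by -0.08 (95% interval -0.30 to 0.14). Neither probe passed the test in any comparison.

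Bnip3 gave heart intensities of 63100 to 185000. Its log2 ratios were -0.08, -0.70, 0.31, 0.24 and -0.12 in db/+ hearts and 0.18, 0.38, 0.87, 0.46 and 0.15 in untreated db/db hearts. The groups overlapped, and the difference of 0.48 (SE 0.18) did not pass the test (limma adjusted p = 0.12).

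**Figure D3:**
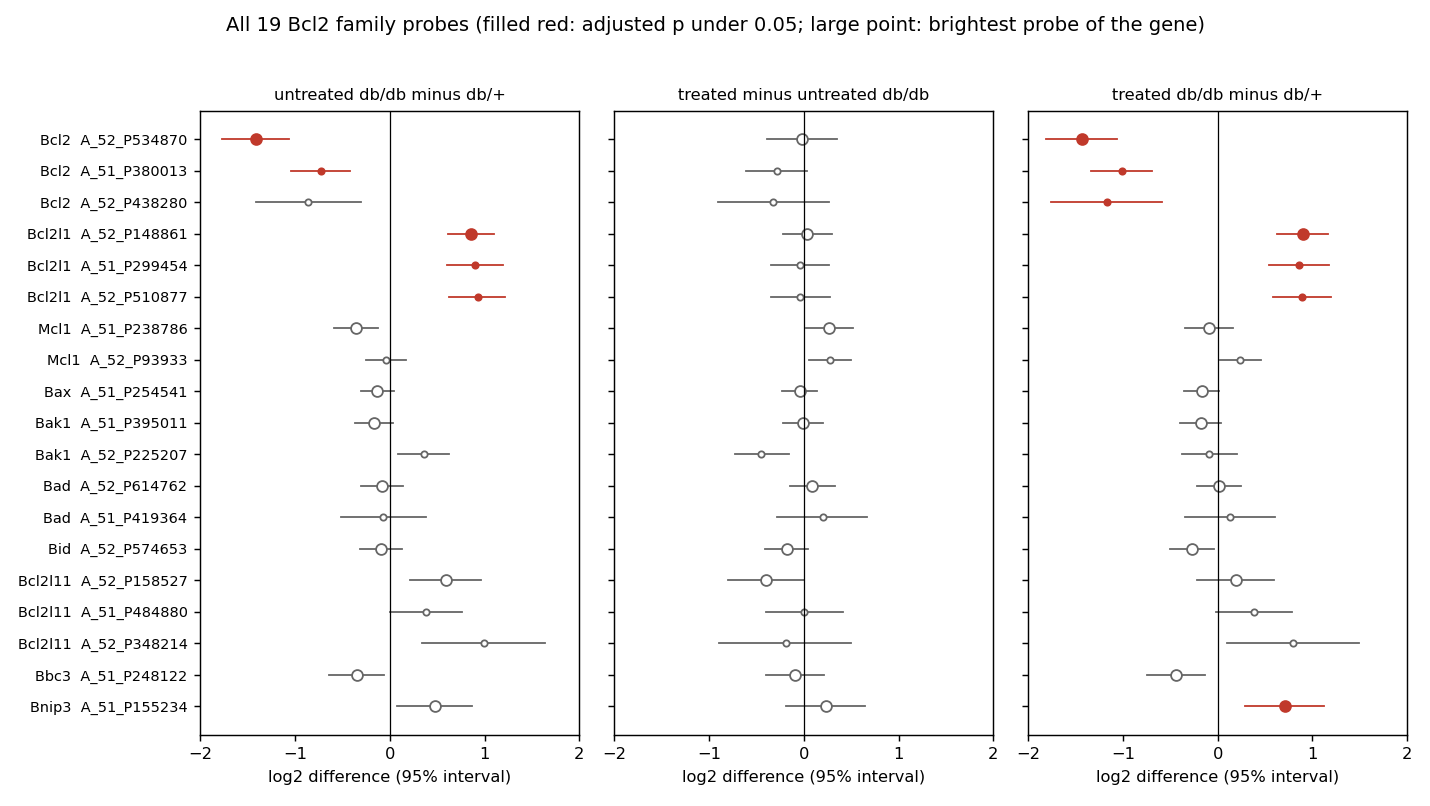
Log2 differences with 95% intervals for the 19 probes in the 3 comparisons. Red filled points passed an adjusted p under 0.05 and large points mark the brightest probe of a gene. The called probes are those of Bcl2 (left of 0) and Bcl2l1 (right of 0), joined by Bnip3 in treated db/db against db/+ hearts, and no probe is called in the middle panel.

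No member passed the test between treated and untreated db/db hearts. By limma 0 of the 19 probes were called, and 0% of all 27591 probes were. Without adjustment 3 member probes had p under 0.05, beside 8.76% of all probes. Bcl2 in treated hearts stood at -0.15, -0.20, -0.30 and -0.25, within the range of the untreated hearts and far below the db/+ hearts. The difference from untreated hearts was -0.02, with a 95% interval of -0.39 to 0.35. For Bcl2l1, at 1.5, 1.15, 1.30 and 1.28 in treated hearts, the difference was 0.04 with a 95% interval of -0.22 to 0.30. At both genes this interval was too narrow to reach back to the db/+ level.

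In 3 probes the treated and untreated hearts did not overlap, as did 4.47% of all probes. For Mcl1 at A_52_P93933 the treated hearts read 0.81 to 0.98 and the untreated hearts 0.41 to 0.71, a difference of 0.28 (SE 0.10, limma adjusted p = 0.48). The brighter Mcl1 probe gave 0.27 (limma adjusted p = 0.54) with overlapping hearts. For Bcl2l11 at A_52_P158527 treated hearts were at -0.55 to -0.20, below every untreated heart, with a difference of -0.40 (SE 0.19, limma adjusted p = 0.57). The other Bcl2l11 probes gave 0.00 and -0.19. For Bak1 at A_52_P225207 the difference was -0.45 (SE 0.13, limma adjusted p = 0.45), against -0.01 at A_51_P395011.

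Against db/+ hearts, 3 genes passed the test in the treated hearts at their brightest probe: Bcl2 was lower and Bcl2l1 and Bnip3 were higher. This comparison shares the db/+ hearts with the first and is not independent of it. Of the 19 probes 7 passed, 4 higher and 3 lower, or 36.8%, where 8.35% of all probes did, 4.29% higher and 4.05% lower. Unadjusted, 11 of the 19 had p under 0.05, as did 26.3% of all probes. All 3 Bcl2 probes were lower, by -1.43 (SE 0.17, limma adjusted p = 0.00042) at A_52_P534870, -1.01 (SE 0.15, limma adjusted p = 0.0019) at A_51_P380013 and -1.17 (SE 0.27, limma adjusted p = 0.021) at A_52_P438280. All 3 Bcl2l1 probes were higher, by 0.90 (SE 0.12, limma adjusted p = 0.001) at A_52_P148861, 0.89 at A_52_P510877 and 0.86 at A_51_P299454. The call at the Bcl2 cDNA-clone probe was lost without treated replicate 1 (-1.10, limma adjusted p = 0.063) or treated replicate 2 (-1.08, limma adjusted p = 0.062).

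For Bnip3 the treated hearts, at 0.56, 0.55, 0.80 and 0.64, all stood above the highest db/+ heart (0.31), and their spread was narrow (SD 0.11 against 0.40 in db/+). The difference was 0.71 (SE 0.19), a 1.63-fold higher level (limma adjusted p = 0.04). The call was lost when any of db/+ replicates 1, 2 and 5 or treated replicates 1, 2 and 5 was left out, with differences of 0.70, 0.55, 0.70, 0.73, 0.74 and 0.71 and adjusted p of 0.055 to 0.092. In a test of any difference among the 3 groups Bnip3 did not pass (moderated F, adjusted p = 0.071), while the 6 probes of Bcl2 and Bcl2l1 did (limma adjusted p from 0.00027 to 0.035). By that F test 7.54% of all probes passed.

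The BH3-only genes Bbc3 and Bid lay below all db/+ hearts in the treated group without passing the test. Bbc3 read -1.87 to -1.34 in treated hearts, with a difference from db/+ of -0.44 (SE 0.14, limma adjusted p = 0.071). Bid read -2.49 to -2.38, with a difference of -0.27 (SE 0.11, limma adjusted p = 0.13). In this comparison the groups did not overlap at 9 of the 19 member probes and at 14.4% of all probes.

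The 15 arrays lay on 4 slides that follow the groups closely. Slide 1 held only db/+ hearts (replicates 1 to 4) and slide 4 only treated hearts (replicates 3 to 5). Slide 2 held db/+ replicate 5 with untreated replicates 1 to 3, and slide 3 held untreated replicates 4 and 5 with treated replicates 1 and 2. Within slide 2 the difference of untreated db/db from db/+ hearts was -1.30 for Bcl2, 0.92 for Bcl2l1 and 0.59 for Bnip3, close in size to the values over all slides, though each rests on 1 db/+ heart. Treated against db/+ hearts, which no slide holds together, gave -1.13, 1.0 and 0.85 for these genes as the sum of the steps within slides 2 and 3. With slide as a fixed block in limma 0 member probes were called in any comparison (adjusted p = 0.22 for Bcl2 and 0.24 for Bcl2l1 in untreated against db/+ hearts), and the calls over all probes fell from 2056 to 38 and from 2303 to 5. With slide as a random block, where the correlation within slides was -0.115, 11 member probes were called in untreated against db/+ hearts.

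**Figure D4:**
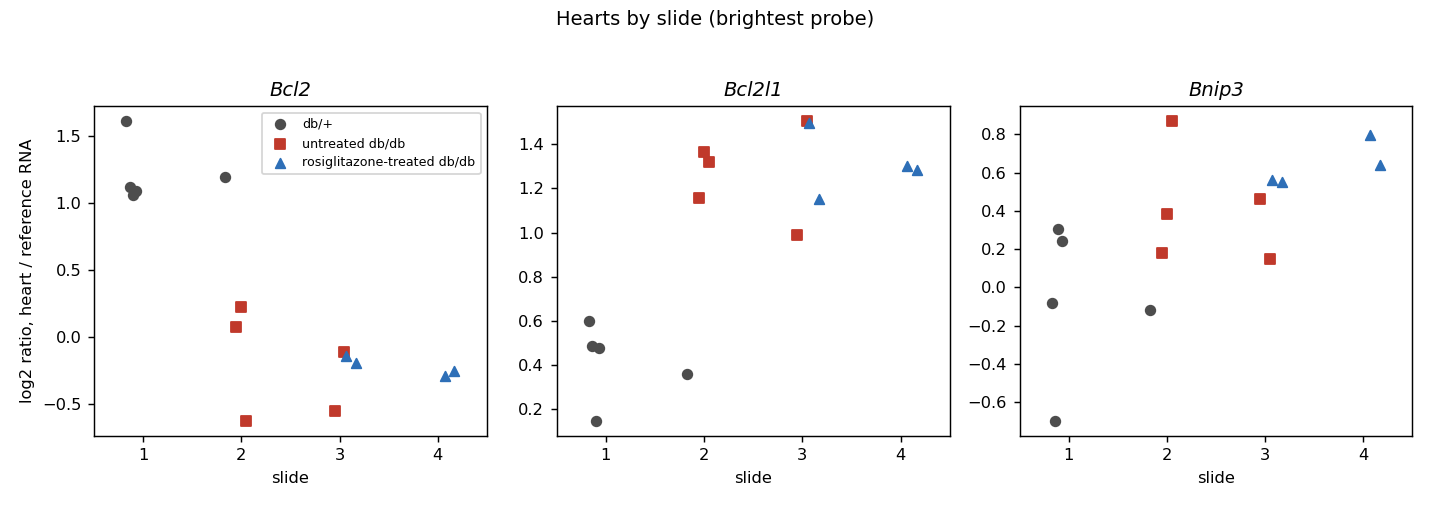
Log2 ratio of heart to reference RNA at the brightest probe of Bcl2, Bcl2l1 and Bnip3, by slide, one point per heart (treated replicates 3 and 4 as 1 point). On slide 2 the single db/+ heart lies above the 3 untreated hearts for Bcl2 (1.19 against 0.22 or less) and below them for Bcl2l1 (0.36 against 1.16 or more).

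Bcl2 is expressed strongly in lymphocytes, and most tested markers of B cells were also lower in db/db than in db/+ hearts. Of 7 tested B-cell markers 5 were lower and 0 higher when untreated db/db hearts were set against db/+ hearts, and the same counts held for treated hearts. Among all genes 7.78% and 9.02% passed in these comparisons, in either direction. Tnfrsf13c, 1 of the 5, passed the filter on dim signals only through the db/+ arrays. It was above background on 4 db/+, 0 untreated and 1 treated array. Cd79b, a subunit of the B-cell receptor, differed by -1.0 and Ms4a1, the surface protein CD20, by -1.94 in untreated against db/+ hearts (limma adjusted p = 0.00023 and 3e-04). Cd79a and Cd22 did not pass there, with 0.09 and -0.49 (limma adjusted p = 0.89 and 0.55). Nor did they pass in treated against db/+ hearts, with 0.56 and -0.70 (limma adjusted p = 0.33 and 0.39). Both are dim: Cd79a was above background on 1 db/+, 2 untreated and 4 treated arrays, and Cd22 on 4, 2 and 3. Cd79a thus passed the filter on dim signals only through the treated arrays, and Cd22 only through the db/+ arrays. The signal of the 9 B-cell markers on the array was summed and scaled to the upper quartile of each array. It was 1.30 to 1.59 in db/+ hearts, 0.536 to 0.713 in untreated and 0.556 to 0.842 in treated db/db hearts. The db/+ range overlapped neither db/db range, while the untreated and treated ranges overlapped each other. Blk was not above background on any db/+ array, nor Tnfrsf13c on any untreated array. Of 12 T-cell and NK-cell markers 1 was lower in untreated and 3 in treated db/db hearts against db/+ hearts. Beside the 7.78% and 9.02% of all genes, the count in untreated hearts is near the share of all genes. Summed signals of these markers were 1.58 to 2.14 in db/+, 1.25 to 1.98 in untreated and 1.47 to 1.53 in treated hearts. The part of these cells in the Bcl2 difference was not tested. In whole-heart RNA, fewer cells of a type and less RNA per cell cannot be told apart.

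Among relatives of the 10 genes, few passed the test. Of 13 other Bcl2-family genes tested, 1 was higher in untreated db/db hearts, where 7.78% of all genes passed in either direction. It was Bcl2l13, a mitochondrial outer membrane protein that acts as a mitophagy receptor, with a difference of 0.44 (SE 0.08, limma adjusted p = 0.0078). Bcl2l13 was also higher in treated against db/+ hearts (0.32, limma adjusted p = 0.043), where Bcl2l14 was lower (-1.78, SE 0.51, limma adjusted p = 0.048) and 9.02% of all genes passed. Bok, a pore former related to Bax, gave -0.29 (limma adjusted p = 0.06) and Bcl2a1b, a guardian of blood cells, -0.83 (limma adjusted p = 0.17) in untreated against db/+ hearts.

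Downstream of the mitochondrion, 12 genes of the apoptosome and of mitochondrial release were tested. In treated against db/+ hearts 1 was lower and 1 higher, where 9.02% of all genes passed in either direction. The count for untreated against db/+ hearts is not reported here. Apaf1, the scaffold of the apoptosome, was lower (-0.38, SE 0.10, limma adjusted p = 0.032) and Aifm1, a flavoprotein of the intermembrane space, was higher (0.37, SE 0.08, limma adjusted p = 0.016). In untreated against db/+ hearts these gave -0.23 and 0.25 and missed the threshold (limma adjusted p = 0.15 and 0.06). In treated against untreated hearts none of the 12 passed. The median log2 difference of the list was -0.03 in treated against db/+ hearts, where the median over all probes was 0.003.

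None of the 5 inhibitors of apoptosis passed in any comparison, and the nearest was Birc6, with 0.36 in treated against db/+ hearts (limma adjusted p = 0.075). Of 20 regulators of the family, 1 passed in 1 comparison: Ddit3, the stress-induced factor CHOP that can repress Bcl2, was lower in treated than in db/+ hearts (-0.49, SE 0.14, limma adjusted p = 0.046). Among all genes 9.02% passed in that comparison and 7.78% in untreated against db/+ hearts, in either direction. The count of 1 of 20 regulators is thus not above the share of all genes. Creb1, a transcription factor known to act on the Bcl2 promoter in other cells, gave -0.59 and -0.68 in untreated and treated against db/+ hearts (limma adjusted p = 0.12 and 0.09). None of 12 partners in mitophagy passed. The nearest was Map1lc3b, the autophagosome protein that Bnip3 binds, with 0.42 in treated against db/+ hearts (limma adjusted p = 0.067).

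Other genes shared the profile of the 3 called members over the 14 samples. Likeness was the root mean square difference of log2 profiles, each centred on its own mean, over 18673 other genes. For Bcl2 the nearest were D330027G24Rik (0.209), 0610010D24Rik (0.219) and 2210011C24Rik (0.229), beside a median of 0.77 over all genes. For Bcl2l1 they were Mboat5 (0.139), Rbed1 (0.143) and Cat (0.156), the peroxide-degrading enzyme catalase, whose mean log2 ratio was 2.12 in db/+, 2.87 in untreated and 2.81 in treated db/db hearts; the median over genes was 0.52. For Bnip3 they were Rasl10b (0.171), Ptpn11 (0.185), the phosphatase SHP-2, and 4833442J19Rik (0.194), with a median of 0.48.

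**Figure D5:**
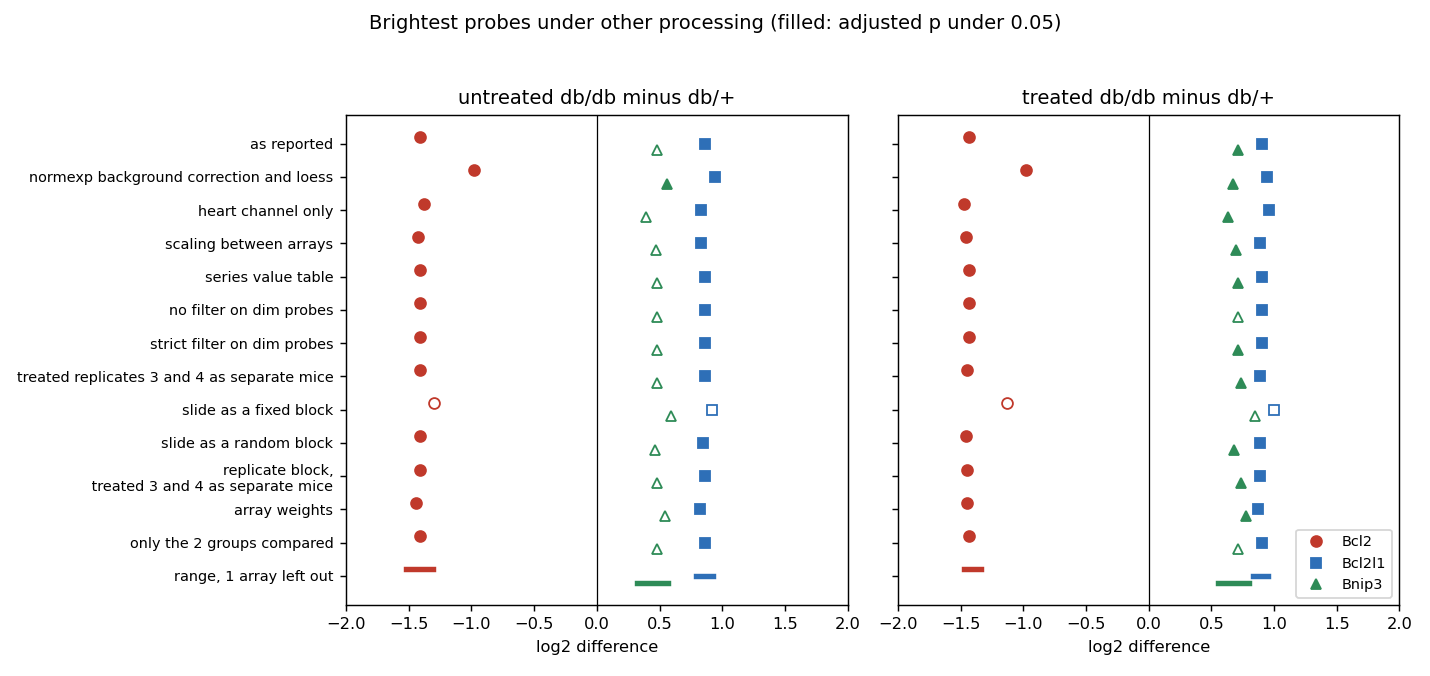
Log2 differences of Bcl2, Bcl2l1 and Bnip3 at their brightest probes in untreated (left) and treated (right) db/db against db/+ hearts under other processing, with filled symbols for an adjusted p under 0.05 and, in the last row, bars for the range when each array is left out in turn. Bcl2 stays between -1.52 and -0.98 and Bcl2l1 at 0.79 or more, and with slide as a fixed block all symbols are open.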

How the data were processed

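Hearts of 5 db/+, 5 untreated db/db and 5 rosiglitazone-treated db/db mice were hybridised to 15 two-colour arrays on 4 slides. Per the file headers, the authors extracted the channel intensity of each spot with Feature Extraction 9.5.1.1, which subtracted background and normalized the dyes with LOWESS. The log10 ratio of heart to reference that the authors deposited was converted to log2, so levels are relative to the reference RNA. No further scaling between arrays was applied in the main fit. Of 45018 spots, 43379 were not controls. Flagged spots (0.922%) were left out where another spot of the probe remained, and spots of a probe were averaged. Gene names are those of the array design, and 16 of 19 member probes matched the same RefSeq symbol by accession. A probe was tested where at least 4 of the 5 arrays of some group read its heart signal well above background (27591 probes). It entered 1 fit of 14 samples with 11 residual degrees of freedom, with limma 3.58.1 (moderated t and F) in R 4.3.3 (statmod 1.5.0). The study used SAM, which permutes samples and was not run here. The number of arrays limits the precision. The series-wide values hold the same ratios (largest difference 0).

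The members and lists were chosen with earlier results of these data known. Genes named are all 10 members at every probe, led by the brightest, up to 4 genes of each pathway list with the smallest p, the cell type markers as counts and summed levels, and the 3 genes most like each called member. Of the regulators, inhibitors of apoptosis and mitophagy partners only those nearest the threshold are printed. Some results on the apoptosome list and 1 probe sequence are not reported here. The cell types checked were cardiomyocytes, B cells, T and NK cells, neutrophils, macrophages, adipocytes, endothelium, fibroblasts, hepatocytes and erythroid cells. Alternatives were normexp with an offset of 50 and loess, the heart channel alone, scaling between arrays, the series-wide values, no filter and a strict filter, treated replicates 3 and 4 as separate mice, a fixed or a random slide block, the replicate numbers as a block, array weights, only the 2 groups compared, an adjusted p under 0.10, and each array left out. The fit was tested on simulated data. Figures were drawn with matplotlib 3.10.9.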

Additional observations from a re-analysis of the deposited data

Results flagged for a closer look

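In each group of 4 or 5 hearts, the heart farthest from the others was set against the range of its group at all 19 probes. In 3 of 57 groups it stood apart by Dixon's test, about as many as chance alone flags, which is 1 in 20. For Bcl2 at A_52_P534870, db/+ replicate 1 had a log2 ratio of 1.61, where the other db/+ hearts were at 1.06 to 1.19. Without it the difference of untreated db/db from db/+ hearts was -1.31 (limma adjusted p = 0.00088). For Mcl1 at A_52_P93933, treated replicate 5 was at 0.98, the others at 0.81 to 0.83. For Bad at A_51_P419364, db/+ replicate 3 was at -2.43, the others at -1.74 to -1.49.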

How the results depend on the processing

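All differences of Bcl2 and Bcl2l1 from db/+ hearts that passed the test kept their sign under every alternative run, and no treated against untreated difference passed under any of them. The count of called member probes changed by over 1.5 times under 3 alternatives. With slide as a fixed block it was 0 in place of 5, 7 and 6 (untreated against db/+, treated against db/+, and among the 3 groups). With slide as a random block it was 11 and 12 in the first and last, where the correlation within slides was -0.115, and at an adjusted p under 0.10 it was 10 in the first. The cause was not tested. Leaving out each array gave 5 to 6, 0, 5 to 7 and 5 to 7 calls in the 3 comparisons and among the groups. With normexp and loess, Bcl2 at A_51_P380013 in untreated (-0.38, limma adjusted p = 0.091), and Bcl2 at A_52_P438280 (-0.53, limma adjusted p = 0.12) and Bcl2l1 at A_51_P299454 (0.28, limma adjusted p = 0.072) in treated against db/+ hearts, no longer passed. Bnip3 in treated against db/+ hearts also missed the threshold with no filter (limma adjusted p = 0.063) and with only the 2 groups fitted (limma adjusted p = 0.061).

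The replicate numbers are shared by the groups, but same-numbered hearts did not deviate together: the correlations of 15 pairs lay between -0.25 and 0.04, and 0 arrays matched best with their own number. With the replicate block, and treated replicates 3 and 4 as separate mice, 6, 0, 8 and 6 member probes were called, against 6, 0, 8 and 8 without the block.

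Differences that changed sign were all of probes that had not passed. In treated against untreated hearts, normexp gave 0.00 for Bcl2 at A_52_P534870 and 0.06 for Bak1 at A_51_P395011. The heart channel alone gave 0.06 for Bax, 0.09 for Bak1 at A_52_P225207, and 0.10 and 0.25 for Bcl2l1 at A_52_P510877 and A_51_P299454. The fixed slide block gave 0.17 for Bcl2 at A_52_P534870, 0.04 and 0.14 for those Bcl2l1 probes and 0.08 for Bbc3. Bak1 at A_51_P395011 was 0.01 with the random block and 0.00 with separate mice, replicate block or not, and Bcl2l11 at A_51_P484880 was -0.02 with the random block and with array weights. In treated against db/+ hearts, normexp gave -0.17 and -0.21 for Bad at A_52_P614762 and A_51_P419364, 0.06 for Bak1 at A_52_P225207 (0.24 with the heart channel alone) and -0.05 for Bcl2l11 at A_51_P484880. The fixed block gave -0.22 for Bad at A_51_P419364 and -0.14 for Bcl2l11 at A_52_P158527. The random block, separate mice and replicate block gave -0.01 for Bad at A_52_P614762. In untreated against db/+ hearts normexp gave 0.10 for Mcl1 at A_52_P93933 and -0.07 for Bcl2l11 at A_51_P484880, and the fixed block gave 0.01 for Bid. Leaving out each array gave -0.10 to 0.01 for Mcl1 at A_52_P93933 and -0.23 to 0.12 for Bad at A_51_P419364 in untreated against db/+ hearts. In treated against untreated hearts it gave -0.13 to 0.09 for Bcl2 at A_52_P534870, -0.03 to 0.10, -0.10 to 0.05 and -0.13 to 0.00 for Bcl2l1 at A_52_P148861, A_52_P510877 and A_51_P299454, -0.04 to 0.06 for Bak1 at A_51_P395011 and -0.12 to 0.12 for Bcl2l11 at A_51_P484880. In treated against db/+ hearts it gave -0.04 to 0.06 and -0.03 to 0.21 for Bad at A_52_P614762 and A_51_P419364.

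Signal limits A_52_P348214 of Bcl2l11, whose reference channel was above background on 8 of 15 arrays, and to a lesser degree A_51_P419364 of Bad.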

Other observations

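Markers of other cell types that a whole heart can carry were counted in the same fit. Of 5 tested adipocyte markers 2 were lower and 0 higher in untreated against db/+ hearts, and likewise in treated against db/+ hearts. Among all genes 7.78% and 9.02% passed in these comparisons, in either direction. The lower markers, Adipoq and Cfd, passed the filter on dim signals only through the db/+ arrays. Adipoq was above background on 4 db/+, 1 untreated and 0 treated arrays, and Cfd on 5, 3 and 1. Of 4 tested hepatocyte markers 2 were higher in untreated against db/+ hearts and 0 in the other comparisons, and 0 were lower. The signal summed over the 6 hepatocyte markers on the array, relative to the upper quartile of each array, was 0.484 to 0.737 in db/+, 0.817 to 66.9 in untreated and 1.05 to 4.13 in treated hearts. This sum includes Apoa1 and Ttr, which were not tested and were above background on 0 db/+ arrays. None of the 7 macrophage, 7 endothelial, 6 fibroblast, 4 neutrophil or 4 erythroid markers tested passed in any comparison. Summed signals of fibroblast markers were 125 to 189 in db/+, 108 to 159 in untreated and 108 to 118 in treated hearts. Those of neutrophil markers were 0.767 to 1.74, 1.47 to 6.24 and 1.98 to 15.6. Erythroid sums were 521 to 2420, 335 to 691 and 237 to 514. For these lists the db/+ and treated ranges did not overlap. The macrophage, endothelial and adipocyte ranges overlapped among all groups.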
